A study of Mus musculus with 4 samples.

Results

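The 56 imprinted genes described here lie at 19 loci of the mouse genome, and the question was where the chromatin protein CTCF bound around them and around their control regions in 4 embryonic tissues. The genes are known imprinted genes taken by symbol, and no binding value enters the rule that selects them. The genes, their loci and allele assignments, and the sequence motif used below were, however, chosen with earlier results of these data known. Each gene's span in RefSeq (mm10 coordinates) was widened by 20 kb on both sides, and the deposited CTCF peaks overlapping these windows were merged across tissues wherever they shared at least 1 base. This gave 356 sites at the 19 loci, out of 121759 regions in the whole series. A site was counted once per locus even where it lay in the windows of several genes.

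The data are chromatin immunoprecipitation followed by sequencing (ChIP-seq) with an antibody against CTCF (Active Motif) in wild-type (WT) embryos of the B6CBAF1 strain. There was 1 library for each of 4 tissues: posterior embryonic trunk at E10 (embryonic day 10), then brain and the 2 parts of the forelimb, distal and proximal, at E12.5. The trunk sample pooled tail ends of embryos largely without their hindlimb buds, the brain sample pooled telencephalons, and the labels mark both forelimb data sets as re-analysed. With 1 library per tissue there is no replicate check, so no difference between tissues carries a test. The peak lists pool many embryos and do not separate the maternal from the paternal copy of a gene, so a peak at an imprinted locus can come from either copy or both. They hold no expression values, and the tissues were not checked against marker genes.

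Imprinted genes are expressed from only one parental copy, and most sit in clusters governed by a control region whose DNA is methylated on one parental copy from the germ line onward. CTCF is a zinc-finger protein that insulates enhancers from promoters and anchors chromatin loops, and methylation of its recognition sequence can block its binding. The best known case is the H19–Igf2 locus, where CTCF binds the unmethylated maternal control region and keeps Igf2 away from enhancers that lie beyond H19.

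The promoter sequences of imprinted genes were set beside the CTCF peaks at their starts. RefSeq promoter windows (GRCm38.p6, 250 bases before to 50 bases after a start) were found for 44 of the 56 genes, 64 windows in all. In 6 of these genes, Commd1, Copg2, Gnas, H13, Peg12 and Ppp1r9a, a window held the peak summits of all 4 tissues. Over the whole genome 1647 of 32851 windows did so, a count of windows rather than genes. The core of the CTCF recognition sequence, taken as the letters CCA, AG and GGC with 2 free bases in each gap, was searched on both strands. It occurred in 2 of the 64 windows of the imprinted genes, those of H13 and Peg12. Over the whole genome the core occurred in 2.43% of 32851 promoter windows, and in 15.9% of the 1647 windows that held summits of all 4 tissues. With the A of CCA left free as well (a looser form that includes every match of the stricter one) these shares were 8.61% and 39.3%, and the Gnas window then also held a match. The 3 windows are printed 5′ to 3′ on the strand of the gene, with the matching bases in capitals.
H13 promoter, chr2:152669211-152669510, plus strand: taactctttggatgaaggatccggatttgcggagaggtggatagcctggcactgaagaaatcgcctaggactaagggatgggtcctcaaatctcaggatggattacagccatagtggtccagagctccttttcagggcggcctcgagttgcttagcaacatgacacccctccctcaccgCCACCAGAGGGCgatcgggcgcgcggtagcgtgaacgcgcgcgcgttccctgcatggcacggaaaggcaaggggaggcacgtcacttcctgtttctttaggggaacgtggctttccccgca
Peg12 promoter, chr7:62464461-62464760, minus strand: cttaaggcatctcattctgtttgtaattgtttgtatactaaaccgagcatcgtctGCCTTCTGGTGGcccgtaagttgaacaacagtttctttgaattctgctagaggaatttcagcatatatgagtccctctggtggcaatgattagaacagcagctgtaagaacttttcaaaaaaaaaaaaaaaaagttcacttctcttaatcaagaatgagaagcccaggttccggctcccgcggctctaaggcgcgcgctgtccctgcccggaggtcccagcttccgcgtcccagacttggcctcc
Gnas promoter, chr2:174284070-174284369, plus strand: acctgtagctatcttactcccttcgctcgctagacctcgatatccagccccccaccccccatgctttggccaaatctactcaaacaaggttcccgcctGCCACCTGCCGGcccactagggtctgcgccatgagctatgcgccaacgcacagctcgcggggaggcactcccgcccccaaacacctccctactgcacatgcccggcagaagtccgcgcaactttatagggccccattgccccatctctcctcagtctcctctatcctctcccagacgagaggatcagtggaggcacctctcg

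In H13, which encodes a signal peptide peptidase, the core occupied bases 180 to 191 of the window and read as searched on the gene's strand. The 4 tissues' summits there lay within 8 bases of its middle. In Peg12, a paternally expressed gene of the Snrpn cluster, the core occupied bases 56 to 67 and lay on the opposite strand. Its middle was 30 to 45 bases from the summits. In Gnas the looser match at bases 99 to 110 was also on the opposite strand, and its middle was 3 to 12 bases from the summits. A match of letters describes the sequence only, and the windows of Commd1, Copg2 and Ppp1r9a held the summits of all 4 tissues without one.

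CTCF sites were recorded in the window of each of the 56 genes. The share of all genes with a site in such a window was not computed. The tissue patterns of the sites stood near their shares of the genome as a whole. Of the 356 sites, 167 (46.9%, exact 95% binomial interval 41.6% to 52.2%, counting error only) were called in all 4 tissues and are referred to as shared sites. The share was 42.4% among all union regions and 45.8% among the regions in the same kind of window around all protein-coding genes. Another 99 sites (27.8%) were called in posterior trunk only, against 28.4% of all regions. Brain alone had 22 sites (6.18%), against 5.92%. Distal forelimb alone had 11 (3.09%), against 3.11%, and proximal forelimb alone had 6 (1.69%), against 2.23%. Trunk and brain alone shared 15 (4.21%), against 5.46%, and a single site (0.281%) was called in both forelimb parts and nowhere else, against 0.332%.

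The trunk list was the longest and deepest. The lists held 106662 peaks in trunk and 74127 in brain, and 64793 and 63873 in the distal and proximal parts of the forelimb. The lowest background that the deposited fold and p values imply put the trunk library at 2.21 times and the brain library at 2.02 times the depth of the distal forelimb library. Trunk called 315 of the 356 imprinted sites, brain 222, distal forelimb 193 and proximal forelimb 201. When the lists were cut to equal length, the 99 trunk-only sites became 17 and the share called in all 4 tissues became 61.9%, against 58.0% for all regions. No genome share was set beside the trunk-only count at equal length.

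Per length of sequence, imprinted windows held 6.68 sites per 100 kb over 5.33 Mb, of which 3.14 were called in all 4 tissues. The windows of all protein-coding genes held 6.04 and 2.76, and the genome held 4.47 and 1.898. Counting sites of any tissue pattern, the densest locus was Gnas with 14.6 sites per 100 kb, followed by H13 with 12.6 and Dlk1–Dio3 with 10.7. The sparsest was Snrpn with 3.70, followed by Rasgrf1 with 3.81 and Inpp5f with 3.99. In absolute number Kcnq1 led with 54 sites, 26 of them in all 4 tissues, and Nnat had the fewest, with 3 sites that were all called in all 4 tissues.

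**Figure D1:**
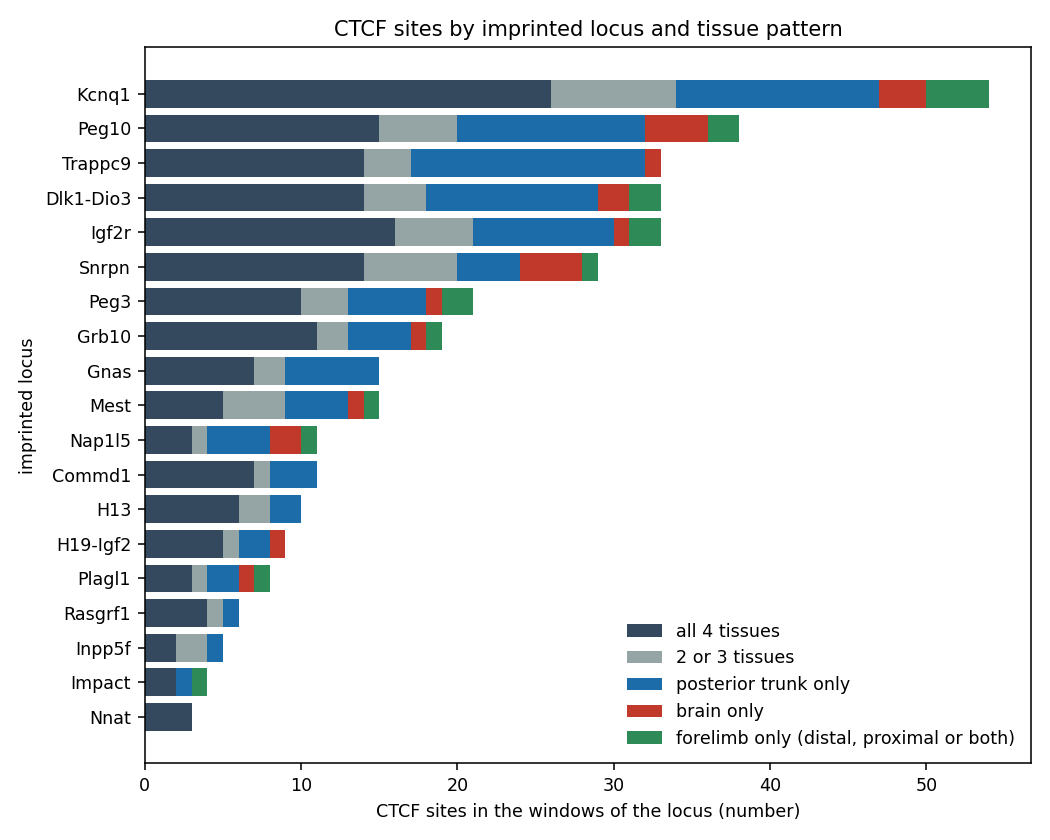
Bars give the number of CTCF sites in the windows of each of the 19 imprinted loci, split by the tissues in which the site was called. The Kcnq1 locus had 54 sites and Nnat 3, and sites called in all 4 tissues were present at every locus.

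The strength of a peak is given below as its rank percentile within the list of its own tissue, ordered by the authors' p value, where the strongest peak is 100. Percentiles describe a peak against others of the same list, and the lists differ in length, so a percentile that differs between tissues is not a change in binding. Imprinted sites called in all 4 tissues had median percentiles of 73.5 in trunk, 62.97 in brain, and 60.3 and 61.9 in distal and proximal forelimb. The medians over all 51657 regions called in all 4 tissues were 75.8, 64.98, 59.9 and 59.4. Of the 167 sites, 13 (7.78%) stood at percentile 90 or above in every list, at 10 loci, against 9.41% of all such regions. Sites called in a single tissue were weak: their median percentile was 21.4 in trunk, 7.66 in brain, and 7.403 and 5.93 in distal and proximal forelimb, and the genome medians of the same classes were 19.9, 7.19, 5.396 and 5.26.

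Each of the 19 loci was assigned one gene that marks its control region, and the sites within 5 kb of that gene's start, here called marker gene sites, were examined. For a gene with several RefSeq starts the nearest one counted, and for the genes with no entry in the promoter table (H19, Peg10, Trappc9 and Impact) the nearer end of the span was used. The marker gene is not always at the methylated region itself, so these are counts of sites near genes: at H13 the control region belongs to Mcts2, which had no site on it, and at Meg3 the germline control region lies upstream. In all, 13 of the 19 marker genes (68.4%) had a site called in all 4 tissues within 5 kb, against 39.3% of 27025 genes in RefSeq and 42.7% of 17491 protein-coding genes. They were H19, Grb10, Meg3, Peg3, Snrpn, Airn, Plagl1, Mest, Peg10, Gnas, Nnat, H13 and Zrsr1. The 6 others were Kcnq1ot1, Rasgrf1, Impact, Nap1l5, Inpp5f and Trappc9. At Trappc9, Rasgrf1 and Inpp5f too, the marker gene's start is not the place of the methylated region. The genome shares count starts of the promoter table only, so the marker genes placed by span end were measured differently. Of the 44 imprinted genes with a start in that table, 30 (68.2%) had a shared site within 5 kb. The share at marker genes was thus close to that of the imprinted genes in general, but most marker genes are among these 44, so the comparison is of a part with its whole.

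The marker genes together had 32 sites within 5 kb, 23 in all 4 tissues and 6 in trunk only. The 23 shared sites had median percentiles of 69.7 in trunk, 60.3 in brain, and 56.7 and 55.4 in distal and proximal forelimb. The 144 other shared sites of the imprinted windows had 75.7, 64.3, 63.3 and 63.7. The ranges overlapped almost fully, from 22.7 to 97.6 in proximal forelimb for the marker gene sites and from 0.556 to 99.6 for the others. By the lowest of their 4 percentiles, the site on the H13 start and the Plagl1 site stood highest and the site on the Airn start lowest. In trunk, however, a Gnas site (28.9) and a Peg3 site (45.01) stood below Airn, and in proximal forelimb a Snrpn site (22.7) did.

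**Figure D2:**
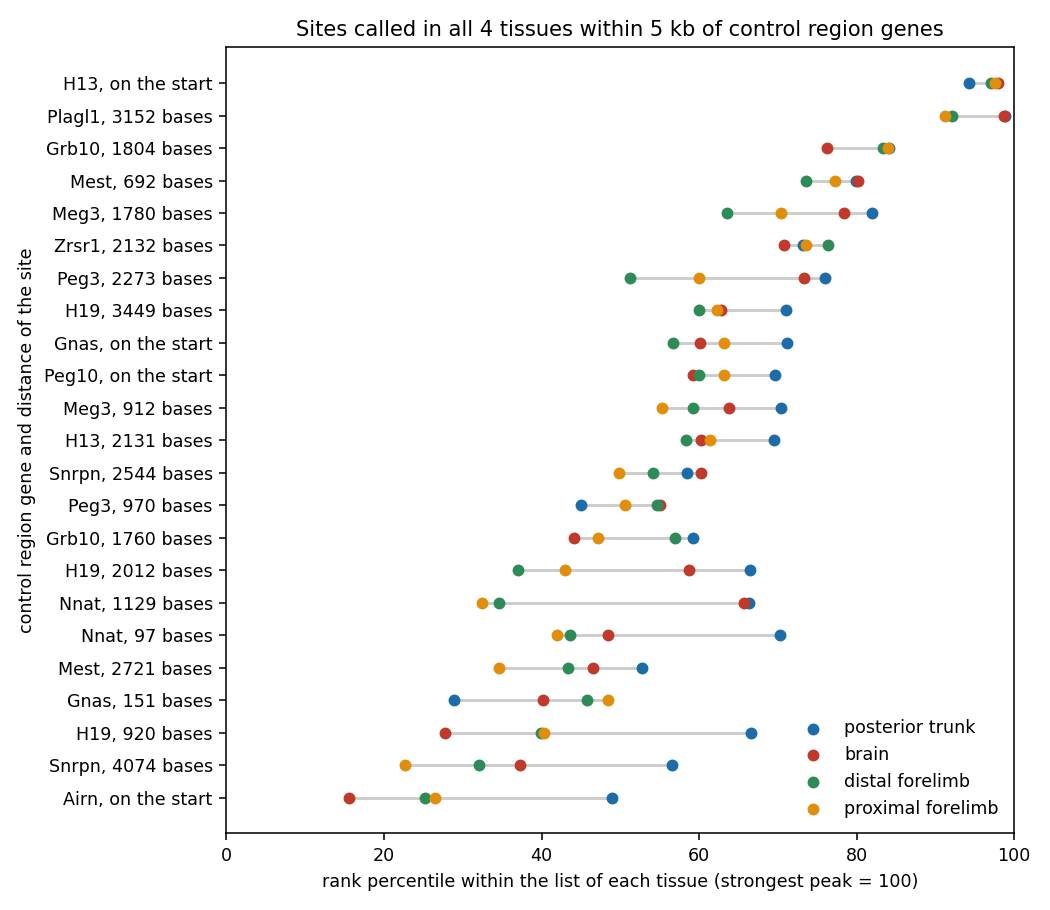
Each row is one of the 23 sites called in all 4 tissues within 5 kb of the start of a marker gene, labelled control region gene on the axis, and the points give its rank percentile in the list of each tissue. The site on the H13 start and the Plagl1 site are above percentile 90 in all 4 tissues, and the second H13 site lies between 58.4 and 69.5.

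At H19–Igf2, the paradigm of CTCF insulation, 3 sites called in all 4 tissues stood side by side within 5 kb upstream of H19, the maternally expressed noncoding RNA. The one nearest to H19, at chr7:142579066-142579421, began 920 bases from the 5′ end of the gene and had rank percentiles of 66.6 in posterior trunk, 27.7 in brain, and 39.9 and 40.3 in distal and proximal forelimb. The middle one, chr7:142580158-142580969, had 66.4 in posterior trunk, 58.8 in brain, and 37.03 and 43.02 in distal and proximal forelimb. The farthest, chr7:142581595-142582248, had 70.98 in posterior trunk, 62.8 in brain, and 59.9 and 62.2 in distal and proximal forelimb. Among all peaks of these lists the 3 sites were thus of middling strength, with every value between 27.7 and 71.0. The medians over all regions called in all 4 tissues were 75.8 in trunk, 64.98 in brain, and 59.9 and 59.4 in distal and proximal forelimb. The nearest and middle sites stood below these medians in every list, and the farthest in trunk and brain only.

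The middle H19 site was 812 bases wide and had 2 summits in the list of every tissue. In trunk they lay at 142580327 and 142580756, 429 bases apart, and in brain at 142580331 and 142580758, 427 bases apart. In distal forelimb they were 422 bases apart and in proximal forelimb 461. The nearest site had a single summit, at 142579248 in trunk, and so had the farthest, at 142581843. The trunk list thus shows 4 summits within 5 kb upstream of H19. The bounds of the control region were not among the data used, so how many of these summits lie in it was not determined. In distal forelimb the farthest site had 2 summits as well, 151 bases apart. Sites with 2 or more summits in all 4 lists were rare, 4 of the 167 (2.40%) against 1.66% of all regions called in all 4 tissues.

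Igf2, the paternally expressed growth factor, had no site called in all 4 tissues within its span. A weak trunk-only peak lay in it at chr7:142664221-142664486, with percentile 30.2 and fold 3.39. Between H19 and Igf2 the windows leave a stretch uncovered, and a strong region called in all 4 tissues lay there, outside the 356 sites. It was chr7:142610326-142610979, 32180 bases from H19, with rank percentiles of 92.04 in posterior trunk, 83.5 in brain, and 79.8 and 79.2 in distal and proximal forelimb and folds of 13.7 in posterior trunk, 13.7 in brain, and 15.03 and 13.99 in distal and proximal forelimb, above the 3 sites next to H19 in every list. Within the windows the next shared site was chr7:142672033-142672571, which began 5217 bases beyond Igf2 and was the strongest of the 9 sites of the locus, with rank percentiles of 87.98 in posterior trunk, 83.9 in brain, and 75.9 and 69.2 in distal and proximal forelimb. A last shared site, chr7:142675462-142676065, lay between Igf2 and the insulin gene Ins2, with 70.4 in posterior trunk, 57.7 in brain, and 60.3 and 63.3 in distal and proximal forelimb. On the far side of H19 there was a site in trunk and brain only at chr7:142555658-142556074, with percentiles 48.7 and 27.1. A brain-only peak at chr7:142690848-142691093 beyond Ins2 was at percentile 1.86, among the weakest of the brain list.

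**Figure D3:**
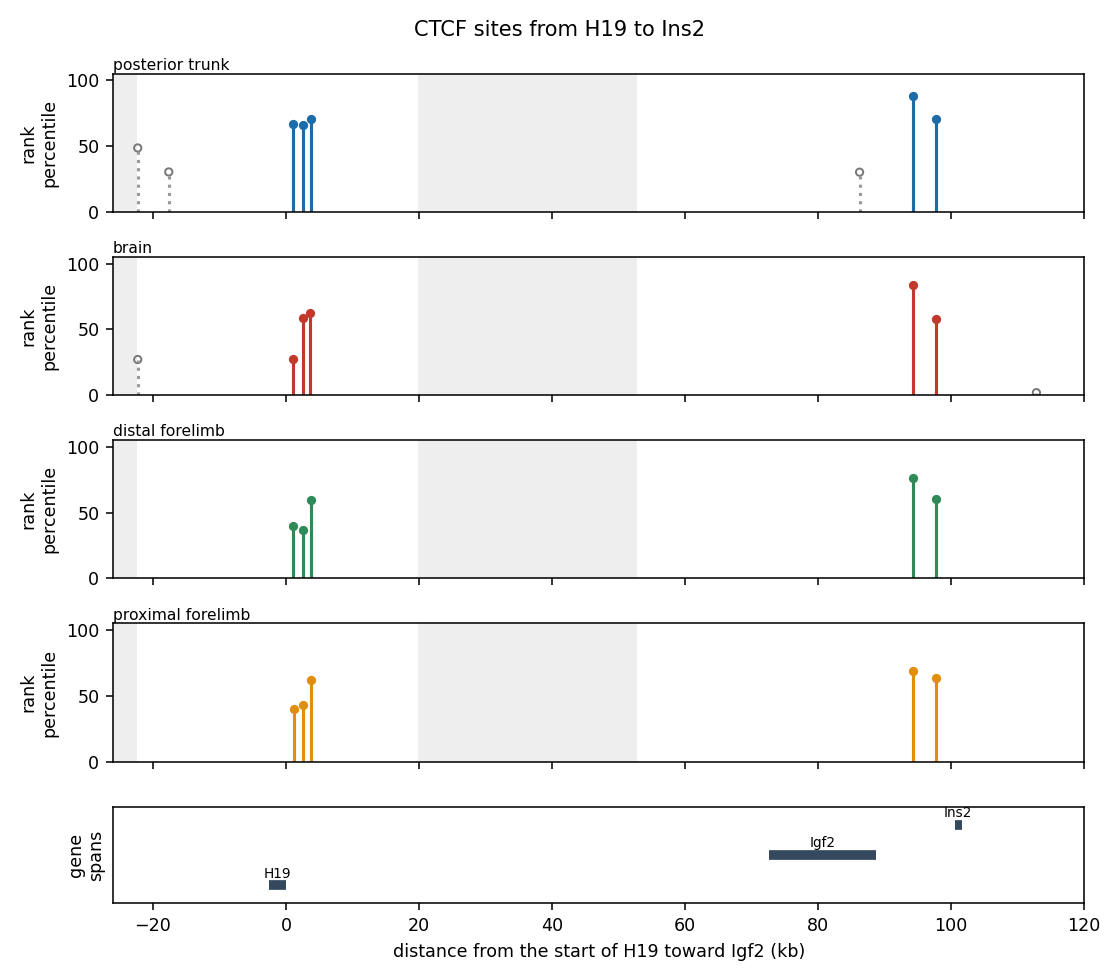
Stems give the rank percentile of each CTCF site at its summit, by distance from the 5′ end of H19 toward Igf2 in kb, with one panel per tissue; filled stems are sites called in all 4 tissues, dotted open ones are other sites, and grey areas lie outside the windows. The 3 sites next to H19 and the 2 beyond Igf2 recur in all 4 panels; the strong region 32180 bases from H19 lies in the grey area and is not drawn.

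The Kcnq1 locus holds a set of maternally expressed genes silenced on the paternal copy through Kcnq1ot1, a paternally expressed RNA that starts within an intron of Kcnq1 and runs antisense to it. Kcnq1 encodes a potassium channel subunit and Cdkn1c an inhibitor of the cell cycle that restrains growth. No CTCF site of any tissue lay within 5 kb of the start of Kcnq1ot1. The nearest peak, chr7:143261592-143261834, was called in distal forelimb only, 34713 bases into the transcript, at percentile 0.468. The nearest site in all 4 tissues began 80254 bases away, at chr7:143376801-143377102, and was weak, with rank percentiles of 26.8 in posterior trunk, 13.02 in brain, and 6.07 and 12.3 in distal and proximal forelimb.

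Sites in all 4 tissues stopped 222.5 kb short of that one on the other side of the Kcnq1ot1 start, at chr7:143153664-143154274, where percentiles were 77.3, 76.2, 72.8 and 71.8 in the order trunk, brain, distal and proximal forelimb. Kcnq1ot1 was one of only 2 imprinted genes without a shared site in its window; the other was Ndn. The 222.5 kb stretch held 5 sites, none of them shared by all 4: 1 in trunk and brain (chr7:143169128-143169503), 2 in distal forelimb only and 2 in trunk only. The second distal forelimb peak was chr7:143353210-143353424, at percentile 8.31. On the far side of this stretch lay a brain-only peak at chr7:143407385-143407598, at percentile 6.78.

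Binding was strong and shared before the stretch, in the first part of Kcnq1, where chr7:143138616-143139423 had rank percentiles of 93.1 in posterior trunk, 77.9 in brain, and 78.1 and 82.5 in distal and proximal forelimb. On the other side the weak shared site was followed by 5 sites in fewer tissues and then by another shared site, chr7:143445776-143446267, with 56.6 in posterior trunk, 17.5 in brain, and 21.3 and 20.8 in distal and proximal forelimb. Between Cdkn1c and Phlda2, a gene that limits placental growth, ran a group of stronger ones. Its members chr7:143463819-143464327, chr7:143466254-143466740 and chr7:143469867-143470504 stood at percentiles from 77.3 to 94.6 in every list, and a proximal forelimb-only peak at chr7:143490955-143491154 was at 4.83. A site 2722 bases from the span of Phlda2, chr7:143505867-143507176, was 1310 bases wide and had 2 summits in each list. A brain-only peak at chr7:143501213-143501412 lay 133 bases from Phlda2, at percentile 12.2.

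The strongest CTCF site of all 19 loci by its lowest percentile lay at the end of the Kcnq1 locus inside Osbpl5, an oxysterol-binding protein gene. At chr7:143706537-143707362 the rank percentiles were 99.4 in posterior trunk, 99.8 in brain, and 99.6 and 99.6 in distal and proximal forelimb, with folds of 13.4 in posterior trunk, 15.5 in brain, and 18.9 and 17.96 in distal and proximal forelimb. A second Osbpl5 site, chr7:143753908-143754598, had percentiles 96.8, 96.2, 98.7 and 96.2 in the same order of tissues. A brain-only peak at chr7:143685823-143686081, percentile 20.4, lay 2681 bases outside Osbpl5. At the other end, next to Ascl2, a transcription factor gene of the placenta, the strongest trunk-only site of the locus was chr7:142986034-142986447, with percentile 55.3 and fold 5.96. A further proximal forelimb-only peak was chr7:143107142-143107382, at the start of the Kcnq1 span, with percentile 13.7.

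**Figure D4:**
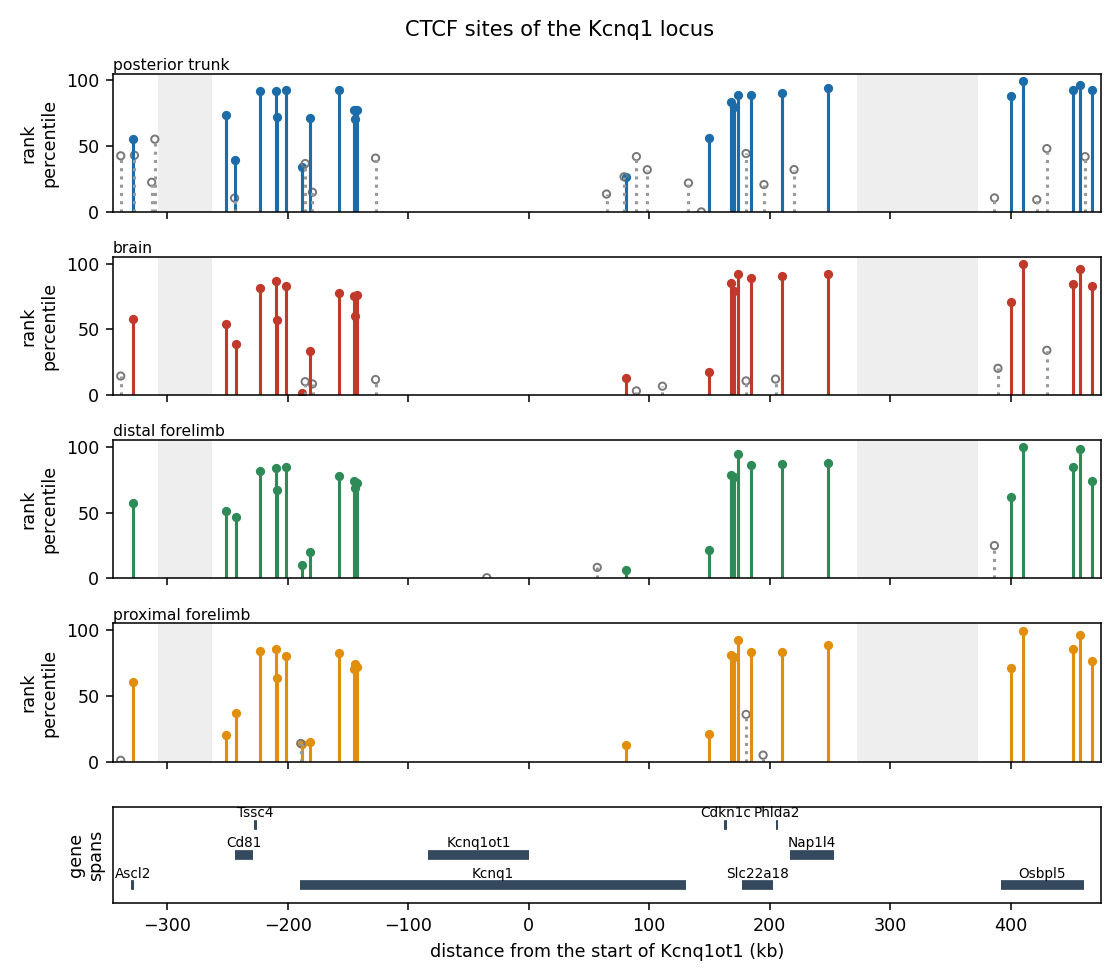
Stems give the rank percentile of each CTCF site of the Kcnq1 locus at its summit, by distance from the start of Kcnq1ot1 in kb, with one panel per tissue; filled stems are sites called in all 4 tissues, dotted open ones are other sites, and grey areas lie outside the windows. Sites called in all 4 tissues are absent over 222.5 kb around the start of Kcnq1ot1, and the highest peak within that stretch is at percentile 40.9, in trunk.

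The Dlk1–Dio3 locus encodes the growth regulator Dlk1, the retrotransposon-derived Rtl1 and the thyroid hormone deiodinase Dio3 from the paternal copy, and the noncoding RNAs Meg3, Rian and Mirg from the maternal copy. A pair of sites called in all 4 tissues lay just inside Meg3, 912 and 1780 bases from the nearest Meg3 start. The first, chr12:109541908-109542440, had rank percentiles of 70.4 in posterior trunk, 63.7 in brain, and 59.2 and 55.4 in distal and proximal forelimb. The second, chr12:109542776-109543221, had 81.9 in posterior trunk, 78.3 in brain, and 63.5 and 70.4 in distal and proximal forelimb, the higher of the pair in every list. Another site within 5 kb, chr12:109550074-109550439, was called in trunk at percentile 6.88 and brain at 26.5.

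Upstream of Dlk1, 14296 bases from it, chr12:109437611-109438189 was the strongest site of the locus, with rank percentiles of 93.3 in posterior trunk, 97.4 in brain, and 97.7 and 95.7 in distal and proximal forelimb. Beyond Rian, chr12:109749913-109750568, 455 bases from Mirg, had 90.4 in posterior trunk, 87.3 in brain, and 83.004 and 75.7 in distal and proximal forelimb. Between these, shared sites after the Meg3 pair were weaker; the highest of them was chr12:109612585-109612901 in Rian, with 66.5 in posterior trunk, 63.3 in brain, and 44.3 and 49.3 in distal and proximal forelimb. The 125.1 kb from Rian to Mirg had no shared site within the windows, which cover 73.4% of that stretch. Brain-only peaks occurred in Meg3 at chr12:109562514-109562884, percentile 27.9, and in Rtl1 at chr12:109590580-109590845, percentile 2.99. Within 20 kb upstream of Meg3, where the germline control region of the locus lies, the only peak was a distal forelimb-only one at chr12:109523037-109523252, percentile 3.56. A proximal forelimb-only peak lay in Rtl1 at chr12:109595644-109595874, percentile 6.11. The trunk-only site with the highest fold, chr12:109553682-109553985, lay in Meg3, with percentile 42.9 and fold 4.16.

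The Dlk1–Dio3 locus is also a large cluster of microRNAs (miRNAs), short RNAs that repress messages paired to their seed. RefSeq places 48 miRNA hairpins in its windows, and 5 of them overlapped a CTCF site. The 8 hairpins at other imprinted loci overlapped none. The share of all hairpins in the genome that overlap a site was not computed. Mir432, Mir3071 and Mir136 fell in 1 site called in all 4 tissues inside Rtl1, chr12:109594937-109595370, with rank percentiles of 50.3 in posterior trunk, 22.8 in brain, and 28.7 and 37.5 in distal and proximal forelimb. Mir1247 fell whole within chr12:110277953-110278222, 1008 bases from Dio3, with 26.5 in posterior trunk, 37.996 in brain, and 24.95 and 35.5 in distal and proximal forelimb. Mir539 shared 22 bases with a trunk-only peak at chr12:109727842-109728150, percentile 8.01. The mature miRNAs that lay entirely within the shared sites are printed as the miRNA sequence under these peaks, with the seed (bases 2 to 8) in capitals.
mmu-miR-432: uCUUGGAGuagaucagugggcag
mmu-miR-136-5p: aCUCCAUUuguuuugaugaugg
mmu-miR-3071-3p: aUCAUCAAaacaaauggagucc
mmu-miR-1247-5p: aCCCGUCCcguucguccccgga
mmu-miR-1247-3p: cGGGAACGucgagacuggagc

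No seed was shared among these 5. Mir136 and Mir3071 come from opposite strands of the same DNA, and their hairpins overlapped the site by 44 and 53 bases. Peak lists carry no signal for the RNA, so nothing on the expression of these miRNAs can be read from them.

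**Figure D5:**
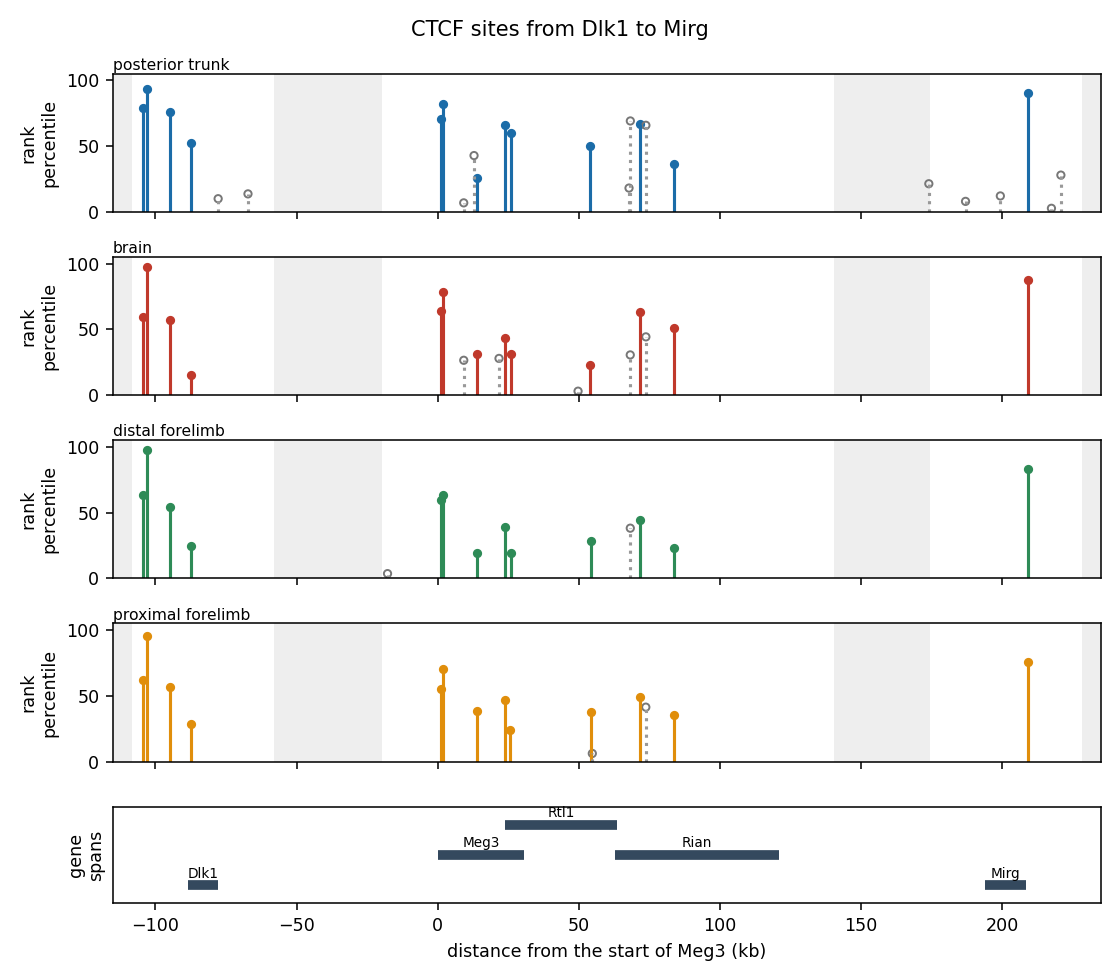
Stems give the rank percentile of each CTCF site from Dlk1 to Mirg at its summit, by distance from the start of the Meg3 span in kb, with one panel per tissue; filled stems are sites called in all 4 tissues, dotted open ones are other sites, and grey areas lie outside the windows. The Meg3 pair recurs in each panel at percentiles from 55.4 to 81.9, and the strongest shared sites stand at the outer ends.

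Grb10 encodes an adaptor that dampens insulin and growth factor signalling, and it switches from maternal to paternal expression in neurons. Of its 2 sites within 5 kb of a start, both were called in all 4 tissues. The site inside the gene, chr11:12025599-12026167, had rank percentiles of 84.1 in posterior trunk, 76.2 in brain, and 83.3 and 83.97 in distal and proximal forelimb. The other, chr11:12039180-12039539, lay 1752 bases outside it and had 59.2 in posterior trunk, 44.1 in brain, and 56.96 and 47.2 in distal and proximal forelimb. The strongest site of the locus was at the far side of the neighbouring gene Ddc, which encodes a decarboxylase of dopamine and serotonin synthesis: chr11:11811862-11812409 had 94.2 in posterior trunk, 96.4 in brain, and 96.3 and 94.8 in distal and proximal forelimb. One-tissue peaks were chr11:11933632-11933831 in brain (percentile 1.53), chr11:11798782-11799031 in distal forelimb (percentile 1.63) and, as the trunk-only site of highest fold, chr11:11925502-11925833 (percentile 48.4, fold 4.802).

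At Peg3, which encodes a paternally expressed zinc-finger protein, 2 sites called in all 4 tissues lay inside the gene near its start. The site 970 bases from the start, chr7:6729113-6729449, had rank percentiles of 45.01 in posterior trunk, 54.98 in brain, and 54.7 and 50.5 in distal and proximal forelimb. The site 2273 bases from it, chr7:6727062-6728146, was 1085 bases wide, with 2 summits in both forelimb lists and 1 in trunk and brain, and had 75.9 in posterior trunk, 73.3 in brain, and 51.3 and 59.99 in distal and proximal forelimb. When peaks were joined only where their summits lay within 100 bases, the pair became 3 sites of which 1 was shared by all 4 tissues. Usp29 starts beside Peg3 and runs away from it, and 177.6 kb passed from the Peg3 pair to the next shared site, chr7:6907044-6907496. The strongest site of the locus followed within Usp29 at chr7:6918143-6918765, with 96.3 in posterior trunk, 94.04 in brain, and 91.4 and 88.6 in distal and proximal forelimb.

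The one-tissue peaks of the Peg3 locus included the strongest distal forelimb-only site of any imprinted locus, chr7:6791354-6791624 in Usp29, at percentile 37.4 and fold 5.67. A weaker one lay near Zim1 at chr7:6670656-6670855, percentile 5.74. The brain-only peak was chr7:6881723-6881922, percentile 5.61. The trunk-only site with the highest fold was chr7:6912773-6913120, percentile 44.6 and fold 4.05.

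The Snrpn locus, deleted or silenced in Prader-Willi and Angelman syndromes in humans, spreads over several megabases with wide spaces between its genes. Snrpn, a splicing protein gene expressed from the paternal copy, had 2 shared sites within 5 kb of a start. They were chr7:60007743-60008128, 2544 bases from it, with rank percentiles of 58.4 in posterior trunk, 60.3 in brain, and 54.1 and 49.9 in distal and proximal forelimb, and chr7:60000726-60001125, 4074 bases from it, with 56.5 in posterior trunk, 37.3 in brain, and 32.1 and 22.7 in distal and proximal forelimb. Elsewhere within the annotated Snrpn span, 230.5 kb and then 147.6 kb passed without a shared site. Ube3a, the maternally expressed ubiquitin ligase, had a shared site on the start at chr7:59228739-59229161, with 63.4 in posterior trunk, 57.4 in brain, and 45.6 and 45.7 in distal and proximal forelimb.

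Around Magel2, Mkrn3 and Peg12, all paternally expressed, 8 shared sites stood close together outside or at the gene spans. The strongest of the locus was chr7:62399939-62400628 between Magel2 and Mkrn3, with rank percentiles of 95.9 in posterior trunk, 93.6 in brain, and 94.3 and 94.8 in distal and proximal forelimb. The site over the Peg12 start, whose sequence is printed above, was chr7:62464296-62465083, with 82.9 in posterior trunk, 77.7 in brain, and 77.8 and 78.7 in distal and proximal forelimb. Ndn, the necdin gene in the same stretch, had only a trunk-only peak across its start in its window, chr7:62348002-62348302, at percentile 24.2 and fold 3.297. Brain-only peaks were chr7:59258132-59258331 and chr7:59277476-59277693 in Ube3a, at percentiles 10.2 and 15.2, and chr7:60188738-60188937 and chr7:60201026-60201354 in Snrpn, at 0.509 and 3.75. A proximal forelimb-only peak at chr7:62450431-62450630 was at 0.439.

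At the Igf2r locus the noncoding RNA Airn starts inside Igf2r, the receptor that clears Igf2, and silences Igf2r, Slc22a2 and Slc22a3 on the paternal copy. The shared site on the Airn start, chr17:12741101-12741610, had the lowest single percentile of the marker gene sites, in brain, with rank percentiles of 48.96 in posterior trunk, 15.6 in brain, and 25.3 and 26.5 in distal and proximal forelimb and folds of 4.63 in posterior trunk, 2.96 in brain, and 4.01 and 4.403 in distal and proximal forelimb. Under scaling to a common depth it was no longer called in all 4 tissues. The strongest trunk-only site of the locus lay 6510 bases away at chr17:12734328-12734801, with percentile 60.2 and fold 6.31. Further along Airn, chr17:12810349-12810892 was the strongest shared site, with 95.7 in posterior trunk, 92.9 in brain, and 93.2 and 92.6 in distal and proximal forelimb.

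The single site of all imprinted loci called in both forelimb parts and in neither trunk nor brain was chr17:12868817-12869051, 8933 bases beyond Airn. It was weak, at percentile 15.3 in distal and 2.24 in proximal forelimb. A distal forelimb-only peak lay in Igf2r at chr17:12684204-12684403, percentile 13.9, and a brain-only peak in Airn at chr17:12837968-12838191, percentile 8.54.

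At Peg10, a paternally expressed gene derived from a retrotransposon, a shared site covered the divergent start of Peg10 and Sgce, the gene of epsilon-sarcoglycan. At chr6:4746955-4747335 the rank percentiles were 69.7 in posterior trunk, 59.3 in brain, and 59.95 and 63.1 in distal and proximal forelimb. The strongest site of the cluster was chr6:5110355-5110866 in Ppp1r9a, which encodes the actin-binding protein neurabin, with 98.8 in posterior trunk, 98.7 in brain, and 94.6 and 94.1 in distal and proximal forelimb. Asb4 had 5 shared sites within its span, among them chr6:5410740-5411539 with 96.3 in posterior trunk, 90.4 in brain, and 91.99 and 90.4 in distal and proximal forelimb. The trunk-only site of highest fold was chr6:5097378-5097741 in Ppp1r9a, with percentile 53.2 and fold 5.32.

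The Peg10 cluster had 4 brain-only peaks. They were chr6:4722130-4722352 and chr6:4737961-4738226 in Sgce, at percentiles 21.9 and 30.9, chr6:5405043-5405337 in Asb4 at 32.6, and chr6:4654664-4654997 at 2.21. A proximal forelimb-only peak was chr6:4909975-4910174, percentile 8.49, and a distal forelimb-only one chr6:5178590-5178789, percentile 7.403.

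Mest encodes a hydrolase-like protein expressed from the paternal copy, and 4 sites lay within 5 kb of its starts, of which 2 were shared. At chr6:30736862-30737358, 692 bases from a start, the rank percentiles were 79.9 in posterior trunk, 80.1 in brain, and 73.6 and 77.2 in distal and proximal forelimb, the highest of the locus. The second shared site, chr6:30740774-30741206, had 52.8 in posterior trunk, 46.6 in brain, and 43.4 and 34.5 in distal and proximal forelimb. The others were chr6:30738208-30738550, called in trunk and brain at percentiles 52.3 and 33.96, and chr6:30732673-30732923, missing from distal forelimb, at 34.8, 22.5 and 12.7 in trunk, brain and proximal forelimb. A shared site over the start of the neighbour Copg2, a coatomer subunit gene, was weaker: chr6:30896590-30897068 had 47.2 in posterior trunk, 48.2 in brain, and 37.05 and 22.9 in distal and proximal forelimb. One-tissue peaks were chr6:30939631-30939902 in brain (percentile 10.1), chr6:30872088-30872287 in proximal forelimb (percentile 5.75) and chr6:30958322-30958566 in trunk (percentile 30.6, fold 3.43).

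Gnas encodes the stimulatory G protein alpha subunit and has several alternative starts with different imprints. The site at its most upstream start, whose sequence is printed above, was chr2:174283946-174284495, with rank percentiles of 71.2 in posterior trunk, 60.1 in brain, and 56.7 and 63.2 in distal and proximal forelimb. A second shared site, chr2:174329423-174329855, lay 151 bases from a start near the other end and had 28.9 in posterior trunk, 40.2 in brain, and 45.8 and 48.4 in distal and proximal forelimb, lowest in trunk. That start had 2 trunk-only peaks beside it, chr2:174329025-174329347 and chr2:174330710-174330930, at percentiles 11.1 and 30.3. The strongest shared site was chr2:174312038-174312518 inside the gene, with 79.4 in posterior trunk, 74.9 in brain, and 74.6 and 76.9 in distal and proximal forelimb. With lists of equal length, the sites within 5 kb of a Gnas start fell from 4 to 2 and the shared ones from 2 to 1.

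Nnat, encoding the paternally expressed membrane protein neuronatin, sits inside an intron of Blcap. All 3 sites of the locus were shared. Those within 5 kb of the Nnat start were chr2:157558547-157558949, 1129 bases away with rank percentiles of 66.3 in posterior trunk, 65.7 in brain, and 34.6 and 32.5 in distal and proximal forelimb, and chr2:157559300-157559981, 97 bases away with 70.2 in posterior trunk, 48.5 in brain, and 43.7 and 42.03 in distal and proximal forelimb. By these percentiles both stood lower in the forelimb lists than in trunk and brain. Ranked only among the regions called in all 4 tissues, the first kept this order. It had 31.1 in trunk, 51.02 in brain, and 19.97 and 18.8 in distal and proximal forelimb. The second did not, with 38.7 in trunk, 27.3 in brain, and 30.1 and 29.2 in distal and proximal forelimb. The strongest, chr2:157571296-157572114, lay 4935 bases from Blcap and had 94.6 in posterior trunk, 86.5 in brain, and 79.2 and 82.4 in distal and proximal forelimb.

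At H13 the methylated control region belongs to Mcts2, a retrogene within an intron of H13. The H13 start carried the marker gene site whose lowest percentile was highest, chr2:152669088-152669676, with rank percentiles of 94.2 in posterior trunk, 97.9 in brain, and 96.98 and 97.6 in distal and proximal forelimb and folds of 12.01 in posterior trunk, 15.04 in brain, and 17.3 and 16.2 in distal and proximal forelimb. A second shared site, chr2:152671592-152671996, lay 2131 bases from the start with 69.5 in posterior trunk, 60.3 in brain, and 58.4 and 61.3 in distal and proximal forelimb. Mcts2 itself had no site on it; the nearest, chr2:152691931-152692263, began 3985 bases beyond it and was missing from distal forelimb, with percentiles 65.2, 42.2 and 21.5 in the other lists. The trunk-only site of highest fold was chr2:152723655-152724142, percentile 40.5 and fold 3.94.

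Zrsr1, a paternally expressed splicing-factor retrogene, lies in an intron of Commd1, whose product acts in copper handling. A shared site 2132 bases from the Zrsr1 start, chr11:22969448-22969873, had rank percentiles of 73.1 in posterior trunk, 70.8 in brain, and 76.3 and 73.6 in distal and proximal forelimb. A trunk-only peak 325 bases from it, chr11:22972330-22972708, was the trunk-only site of highest fold at the locus, at percentile 40.6 and fold 3.35. The Commd1 start was covered by a shared site, chr11:22982091-22982801, with 86.1 in posterior trunk, 74.05 in brain, and 71.1 and 69.4 in distal and proximal forelimb. The strongest of the locus, chr11:22987330-22988013, lay 2791 bases outside Commd1 and had 89.03 in posterior trunk, 92.5 in brain, and 95.9 and 92.9 in distal and proximal forelimb.

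Plagl1 encodes a zinc-finger growth suppressor expressed from the paternal copy. A shared site 3152 bases upstream of its nearest start, chr10:13087162-13087680, was above percentile 90 in every list, with rank percentiles of 98.8 in posterior trunk, 98.6 in brain, and 92.1 and 91.2 in distal and proximal forelimb and folds of 15.2 in posterior trunk, 17.1 in brain, and 17.8 and 17.2 in distal and proximal forelimb. Inside the gene a brain-only peak, chr10:13115937-13116355, stood at percentile 6.03, and a distal forelimb-only peak, chr10:13102455-13102654, at 9.0002. The trunk-only site with the highest fold was chr10:13117198-13117527, percentile 25.1 and fold 3.06.

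At Rasgrf1, an exchange factor gene for Ras, the methylated control region lies far upstream of the start, beyond the 20 kb window, and CTCF binding to it is textbook knowledge. Within 5 kb of the start there was no site. In a 50 kb window, the only upstream site was chr9:89877758-89878135, 31640 bases from the start, called in trunk and brain with percentiles 53.2 and 22.3 and in neither forelimb part. Within the gene the strongest shared site was chr9:89968816-89969502, with rank percentiles of 85.2 in posterior trunk, 69.8 in brain, and 58.6 and 58.5 in distal and proximal forelimb. The only trunk-only site was chr9:89976614-89976813, at percentile 7.28 and fold 2.26.

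Trappc9 and Kcnk9 surround Peg13, a noncoding RNA whose start is the methylated control region and which lies within Trappc9. The 2 sites at the start of Trappc9 itself were weak and called in trunk only, chr15:73061055-73061261 at percentile 7.59 and chr15:73060094-73060513 at 17.5. Peg13, in contrast, had a pair of shared sites 0.319 kb apart. The first, chr15:72808993-72809555, had rank percentiles of 72.8 in posterior trunk, 68.4 in brain, and 65.4 and 63.9 in distal and proximal forelimb. The second, chr15:72809875-72810604, had 71.7 in posterior trunk, 69.5 in brain, and 69.6 and 67.1 in distal and proximal forelimb. All 8 values of the pair lay between 63.9 and 72.8.

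The strongest site of the Trappc9 locus was chr15:73022782-73023364, with rank percentiles of 99.7 in posterior trunk, 99.8 in brain, and 96.1 and 95.8 in distal and proximal forelimb, and the potassium channel gene Kcnk9 had a strong shared site within it at chr15:72516846-72517587, with 98.8 in posterior trunk, 97.8 in brain, and 92.3 and 88.3 in distal and proximal forelimb. The trunk-only site of highest fold among all imprinted loci was also in Trappc9: chr15:72739979-72740400 had percentile 62.1 and fold 7.34. The only brain-only peak was chr15:73079400-73079613, percentile 3.75.

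The 3 remaining marker genes had no shared site within 5 kb. Nap1l5, a retrogene in an intron of Herc3, had a trunk-only peak 4715 bases away at chr6:58902116-58902411, percentile 13.996. The strongest shared site of its locus was chr6:58921553-58922051, with rank percentiles of 78.9 in posterior trunk, 63.1 in brain, and 72.6 and 65.5 in distal and proximal forelimb. A brain-only peak 12799 bases from Herc3, chr6:58933197-58933501, was the strongest brain-only site of the 19 loci, at percentile 47.01 and fold 5.76. Weaker one-tissue peaks were chr6:58838009-58838250 in brain (percentile 6.03), chr6:58885498-58885697 in distal forelimb (percentile 1.66) and chr6:58875456-58875674 in trunk (percentile 23.2, fold 3.25).

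Inpp5f, a phosphoinositide phosphatase gene whose imprinted short transcript starts within it, had no site of any tissue within 5 kb of its start. Its strongest shared site, chr7:128705379-128706205, lay 8943 bases past the gene, with rank percentiles of 99.3 in posterior trunk, 98.6 in brain, and 97.4 and 98.7 in distal and proximal forelimb, and the trunk-only one was chr7:128672356-128673023, percentile 41.6 and fold 4.14. Impact, a translational regulator gene, had a shared site 6066 bases from the nearer end of its span, chr18:12947731-12948624, with 92.4 in posterior trunk, 86.2 in brain, and 86.5 and 81.98 in distal and proximal forelimb. A weaker shared site, chr18:12976009-12976338, lay inside the span, with 26.8 in posterior trunk, 20.98 in brain, and 26.4 and 10.8 in distal and proximal forelimb. One-tissue peaks there were chr18:12941828-12942027 in distal forelimb, percentile 14.1, and chr18:12938271-12938553 in trunk, percentile 8.31 and fold 2.42.

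To compare tissues on the same set of regions, each site called in all 4 tissues was also placed among the 51657 such regions of the genome within each list. The places differed by a median of 14.3 percentile points between the highest and lowest tissue at imprinted sites, against 14.03 over all regions. A difference of at least 30 points occurred at 13 of the 167 sites (7.78%), against 7.62% of all regions, so wide differences were about as frequent as elsewhere. The widest, 59.6 points, was at chr17:12872040-12872440 beyond Airn, with places of 5.89, 6.63, 56.7 and 65.5 in trunk, brain, distal and proximal forelimb. In this order the site 37 bases from the Zim1 start, chr7:6696469-6696881, had 6.57, 34.03, 57.6 and 59.7, and the site 19345 bases before Plagl1, chr10:13071027-13071487, had 52.2, 38.99, 26.02 and 10.8. The sites near Airn and Zim1 stood highest in the forelimb lists and the Plagl1 one in trunk.

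Of these 13 sites, 3 were marker gene sites. The Peg3 site nearest the start had places of 6.63, 35.99, 43.5 and 39.3, with trunk lowest. The Gnas site 151 bases from a start had 1.93, 17.5, 32.6 and 36.8, again with trunk lowest. The Nnat site 1129 bases from its start had 31.1, 51.02, 19.97 and 18.8, with brain highest. Over the 13 sites trunk was lowest at 5 and proximal forelimb at 6. Trunk was lowest at 41.8% of the 3934 regions of the genome with such a difference and proximal forelimb at 23.0%.

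Taking the genes one by one, 54 of the 56 had a shared site in their window and 39 had one within their span. Of the 44 genes with a start in the RefSeq promoter table, 30 (68.2%) had a shared site within 5 kb of a start, against 42.7% of protein-coding genes and 39.3% of all genes. Within 1 kb the count was 19 (43.2%), against 23.8% and 20.5%, and 8 (18.2%) had one on a start, against 10.8% and 8.80%. The 23 paternally expressed genes included 13 with a shared site in the span, and the 27 maternally expressed genes 20. No share over all genes was computed for the window and span counts, so they are not set against the genome. Genes of one locus share sites, as Peg3 with Usp29 and Meg3 with Rtl1 do, so these counts are not independent observations, and the genes differ in length and number of starts.

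Sites missing from exactly 1 tissue were 23 in number, and none of them stood at percentile 50 or above in all 3 lists that called it. No such share was set beside it for all regions of the genome missing from 1 tissue, so this is not a trait of imprinted sites. They were missing from distal forelimb at 12, from brain and from proximal forelimb at 5 each, and from trunk at 1, which is 3.37%, 1.404%, 1.404% and 0.281% of the imprinted sites against 2.85%, 1.47%, 2.91% and 0.289% of all regions. The best of them by its lowest percentile was chr12:109614433-109614933 in Rian, missing from distal forelimb, with 65.9, 44.3 and 41.3 in trunk, brain and proximal forelimb. The one missing from trunk was chr17:12797508-12797796 in Airn, with 20.9, 6.903 and 14.7 in brain, distal and proximal forelimb.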

How the data were processed

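CTCF ChIP-seq was deposited as 1 narrowPeak list per tissue in mm10 coordinates. Per the submitters' processing notes the authors used MACS2 2.1.1.20160309, Bowtie2 2.3.5, cutadapt 1.16 and SAMtools 1.9. Caller options, duplicate handling and any control library: not given in the sources used here. Each deposited row gives the authors' integer score, a fold enrichment (ratio of signal over local background), −log10 p and −log10 q values, and the summit's offset from the peak start. Fold and rank are the peak's own values from the authors' caller and describe peaks within a list only. Read totals are not in the lists, so depth is known only relatively: fold and −log10 p were solved for the whole pileup and its background, and the lowest background per list gave the relative depth.

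Rows with the same interval were treated as summits of 1 peak. Peaks of the 4 lists that shared at least 1 base were merged into union regions, and those overlapping a gene window were assigned to 1 of 19 loci. The site's strongest peak by p gave its percentile in the list. Gene spans came from the RefSeq table, and starts and sequences from RefSeq for GRCm38.p6, the assembly of mm10. The calculation was checked on simulated lists with known patterns (Python 3.11.15, numpy 2.4.6, pandas 2.3.3, scipy 1.17.1, matplotlib 3.10.9).

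The genes, loci, allele assignments and motif letters were chosen with earlier results of these data known. Sites were named by a rule: by locus the shared site with the highest lowest percentile and the trunk-only site of highest fold, all sites within 5 kb of a marker gene or from H19 to Igf2, and all brain-only and forelimb-only sites. Sites named outside this rule (such as those at Peg13, under miRNAs, on gene starts or with wide differences in rank) were chosen after their values were seen. Alternatives covered the q threshold, list length, depth scaling, the joining of peaks and the window. Leaving out each library and ranking among shared regions were added after seeing the data. No test across tissues was made, since each has 1 library.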

Additional observations from a re-analysis of the deposited data

How the results depend on the processing

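The number of imprinted sites stayed within 1.5 times its value under all alternatives. The share called in all 4 tissues (46.9%) became 53.2% with −log10 q of at least 5, 61.9% with lists of equal length and 57.5% with depth scaling, while the share over all regions became 48.9%, 58.0% and 53.6%. Trunk-only sites fell from 99 to 17 at equal length and 51 after depth scaling. Brain-only sites (22) became 9, 11 and 7 under the q threshold, equal length and depth scaling. Forelimb-only sites (18) became 5 under the q threshold and 31 at equal length. Leaving out each library in turn gave shares called in every remaining tissue from 49.1% to 65.4%, against 46.4% to 59.6% of all regions. Trunk-only counts ran from 102 to 114, brain-only from 22 to 37 and forelimb-only from 19 to 36. No genome share was set beside the one-tissue counts under the alternatives, so their shifts are not particular to imprinted sites. The upper values of the share, brain-only and forelimb-only counts came without the trunk library. The cause of these shifts was not tested. By locus, the shared count moved by more than 1.5 times at Impact (2 to 1 under the q threshold and at equal length, 4 with 50 kb windows), H19–Igf2 (5 to 12 with 50 kb) and Inpp5f (2 to 4 with 50 kb), and by less at other loci, such as Kcnq1 (26 to 22 with 10 kb windows and 32 with 50 kb). A site missing from a list was not called at that list's depth and is not shown to be absent. No paired analysis was possible because there is 1 library per tissue.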
